A study of Mus musculus with 8 samples.

Results

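Transfer RNAs (tRNAs) that carry valine and alanine, and the fragments cut from them, were followed in small RNA libraries from mouse sperm. The members are the rows of the deposited count table that are annotated as structural RNA and named tRNA-Val or tRNA-Ala, 421 rows of 1010917 in all, of which 38 were named for valine and 383 for alanine. Rows of one tRNA name with the same counts in all 8 libraries were counted once, which left 191 distinct rows, 38 for valine and 153 for alanine. The libraries fall into 2 groups of 4. One group is labelled EtOH-Cessation, sperm of C57BL/6J males given alcohol and then kept off it for 1 month, as the series title has it, and the other is labelled Control-Cessation, sperm of C57BL/6J control males. Age, dose and the way alcohol was given are not in the labels. Nor do the labels say whether libraries stand for single animals or pools, so a p-value here measures only the spread between these libraries. The labels name mature sperm as the source of every library, while the design text of the series mentions the caput, the upstream end of the epididymis.

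A tRNA brings its amino acid to the ribosome and reads the codon with its anticodon. In sperm, fragments of tRNAs, above all 5′ fragments released by cleavage in the anticodon loop, make up much of the small RNA. Sperm gain many of these fragments while they pass through the epididymis, whose epithelium delivers RNA in vesicles, and the fragments of glycine, glutamate and valine tRNAs are known to be abundant there. Alanine tRNA has a second relevance in rodents, since the ID family of short interspersed repeats and the neuronal RNA BC1 derive from it, so that alanine tRNA copies are spread widely over rodent genomes.

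The table names a tRNA by its codon: in 45 of 45 tRNA names with a plain triplet, that triplet codes for the named amino acid. GTA and GTG are valine codons and GCA and GCG alanine codons, while the Y in GTY and GCY is the usual letter for either pyrimidine. A last name, tRNA-Ala-GCY_, ends in an extra _ that no label or file header explains. The 7 names hold very unequal numbers of rows. There were 7 distinct rows for tRNA-Val-GTA, 18 for tRNA-Val-GTG and 13 for tRNA-Val-GTY, against 44 for tRNA-Ala-GCA, 22 for tRNA-Ala-GCG, 9 for tRNA-Ala-GCY and 78 for tRNA-Ala-GCY_. No sequence or coordinate of a tRNA copy is printed, because no source used here names the genome build or annotation behind the copy numbers.

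Rows of a name often held nearly the same counts. The 5 most abundant rows of tRNA-Val-GTG differed by at most 45 counts in any library, a gap of at most 0.164 times the square root of their mean count, which is less than counting noise between separate molecules. Values of single copies are therefore uncertain, and sums over rows count many reads more than once. Counts also recurred between names, as the 191 rows held 166 distinct sets of counts over both amino acids. The largest such exact repeat was a row of tRNA-Val-GTG (copy21) and a row of tRNA-Val-GTY (copy14), a total of 957. More abundant rows were close but not identical between names, as with tRNA-Val-GTG_copy9 and tRNA-Val-GTY_copy6, at totals of 5367 and 5388. How many reads the names share is not known. Levels below are in CPM, counts relative to the library's total over the tested features after TMM normalization, and sums over rows serve only to set libraries side by side.

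Valine rows took a larger part of the tRNA-derived counts than alanine rows in every library. Since these shares are sums over rows, they grow with the number of near-identical copies. The valine rows held 17.65%, 10.92%, 13.2% and 22.78% of the distinct tRNA-derived counts in EtOH libraries 1 to 4, against 10.85%, 10.5%, 20.61% and 13.64% in control libraries 1 to 4. EtOH 4 was the highest and control 3 the next, and the groups overlapped. The mean share was 16.1% ± 5.24 in the EtOH libraries and 13.9% ± 4.69 in the controls (SD, n = 4 each). With near-identical rows of a name joined into 1, it was 15.1% ± 5.65 in the EtOH libraries and 12.2% ± 4.38 in the controls (SD, n = 4 each). The alanine rows held 1.37%, 2.61%, 1.91% and 1.07% in the EtOH libraries, against 1.57%, 1.65%, 1.30% and 1.26% in the controls. Here EtOH 2 was highest and EtOH 4 lowest, so that the EtOH group enclosed the whole range of the controls. The mean was 1.74% ± 0.677 in the EtOH libraries and 1.44% ± 0.195 in the controls (SD, n = 4 each). With near-identical rows joined it came to 3.47% ± 1.11 and 2.66% ± 0.130 (EtOH and control, SD, n = 4 each), so the level of the alanine share depends on how copies are counted.

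**Figure D1:**
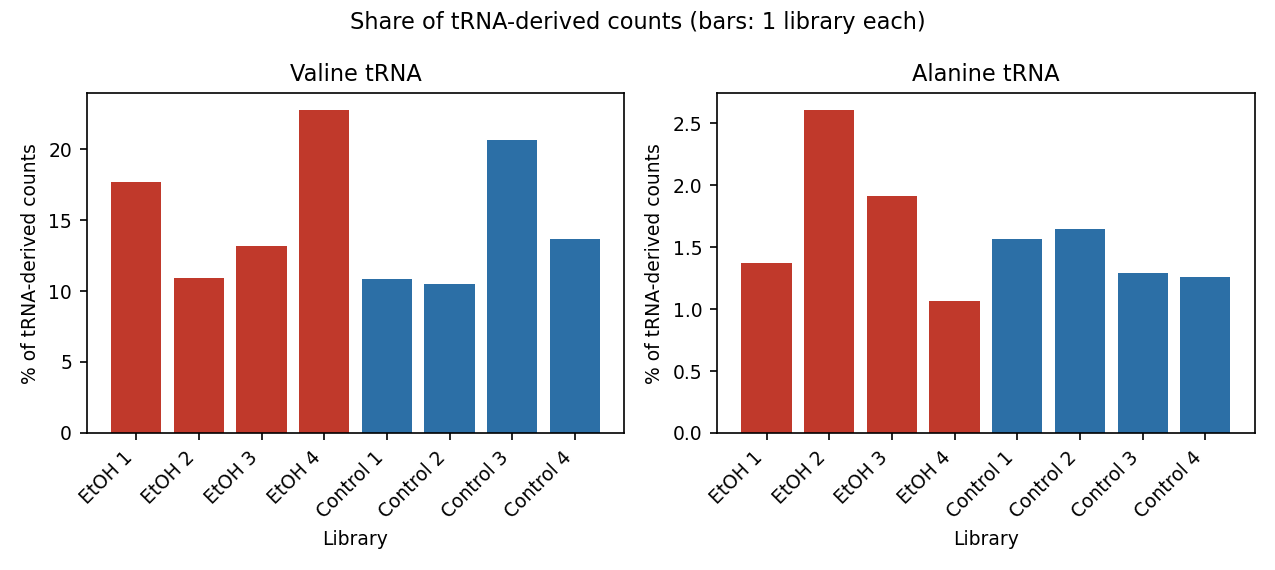
Share of all distinct tRNA-derived counts, in percent, held by valine rows (left) and alanine rows (right), with 1 bar per library, EtOH in red and control in blue. The highest valine bar is EtOH 4, at 22.8%, and the highest alanine bar is EtOH 2, at 2.61%.

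Library facts that bear on these values are as follows. Total counts were 3116421 to 6805989 in the EtOH libraries and 4210785 to 4768713 in the controls. EtOH 2 had the lowest total and 30.5% of its counts in annotated exons, while the other EtOH libraries had 9.08% to 10.4% and the controls 7.07% to 7.74%. The summed exon level of 12 genes typical of the epididymal epithelium, all with counts, was 843 to 18033 CPM in the EtOH libraries. The top value was in EtOH 2, and the controls had 457 to 718 CPM. Crisp1, Cd52, Spink8 and Adam7 carried this sum, and no other gene of the list had more than 246 counts in all. The 9 sperm and spermatid genes summed to 255 to 405 CPM in the EtOH libraries and 505 to 629 CPM in the controls. In the EtOH libraries 6 leukocyte genes summed to 5.15 to 20.6 CPM, 5 red blood cell genes to 1.67 to 19.5 CPM and 4 smooth muscle genes to 14.3 to 42.8 CPM. In the controls the leukocyte genes summed to 8.97 to 21.1 CPM, the red blood cell genes to 17.9 to 42.0 CPM and the smooth muscle genes to 20.1 to 118 CPM. No gene of these lists was at 0 over all libraries. Mature microRNAs held 6.96% to 10.2% of the counts in the EtOH libraries and 16.8% to 27.7% in the controls, with no overlap. Among them miR-223-3p, a marker of myeloid leukocytes, had 3.86 to 7.42 CPM in the EtOH libraries and 12.3 to 54.8 CPM in the controls. The lymphocyte marker miR-150-5p had 5.79 to 21.4 CPM in the EtOH libraries and 16.9 to 192 CPM in the controls. The red blood cell marker miR-451a had 27.6 to 62.4 CPM in the EtOH libraries and 61.5 to 748 CPM in the controls. The epithelial marker miR-200b-3p had 471 to 1082 CPM in the EtOH libraries, with 958 CPM in EtOH 2. It had 719 to 2760 CPM in the controls, so the groups overlapped. EtOH 4 had the highest share of tRNA-derived counts, 53.9%, against 26.7% to 35.0% in the other EtOH libraries and 30.2% to 35.99% in the controls. The part of RNA from epithelium or blood cells, or of these library differences, in the results was not tested, and fewer cells of a type and less RNA per cell cannot be told apart.

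Of the 191 distinct rows, 55 had enough counts to be tested, 25 for valine and 30 for alanine. With near-identical rows of a name taken as 1 set these came to 39 sets, 17 for valine and 22 for alanine. Rows alike or identical under different names still count separately in both figures. The tested rows numbered 3 for tRNA-Val-GTA, 12 for tRNA-Val-GTG, 10 for tRNA-Val-GTY, 7 for tRNA-Ala-GCA, 10 for tRNA-Ala-GCG, 7 for tRNA-Ala-GCY and 6 for tRNA-Ala-GCY_. The other 136 rows carried very little, with a median total of 3 counts over the 8 libraries and 0.0615% of all counts of the members. With edgeR's quasi-likelihood test, fitted over 10234 features with Benjamini-Hochberg adjustment, 1 of the 55 rows passed an adjusted p of 0.05, lower in the EtOH libraries, and 0 passed it higher. The background over all tested features was 0.137% lower and 0.0489% higher. The row called had met the filter on low counts only through the control libraries: it was the 1 tested member with under 10 counts in every EtOH library, as were 15 of all 10234 tested features, 9 of them past the threshold. A row so selected had to differ between the groups to be tested at all. At an unadjusted p below 0.05, 3 rows were higher and 2 lower, where the background was 17.9% higher and 9.15% lower. DESeq2 called the same row and no other, where it called 17.5% of all features, and limma voom with quality weights again that row alone, against 6.40% of all features. The EtOH and control libraries did not overlap for 1 row, which was lower, against a background of 7.81% lower and 7.34% higher. The median log2 fold change (EtOH over control) was 0.11 over the valine rows and -0.12 over the alanine rows. It was -0.24 over 325 other distinct tRNA rows and -0.09 over all features. Near-identical rows each count in these medians. With them joined, the median over the 39 member rows was -0.11 instead of -0.06, and over all features -0.07. No valine median is given with them joined, so its sign is uncertain.

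**Figure D2:**
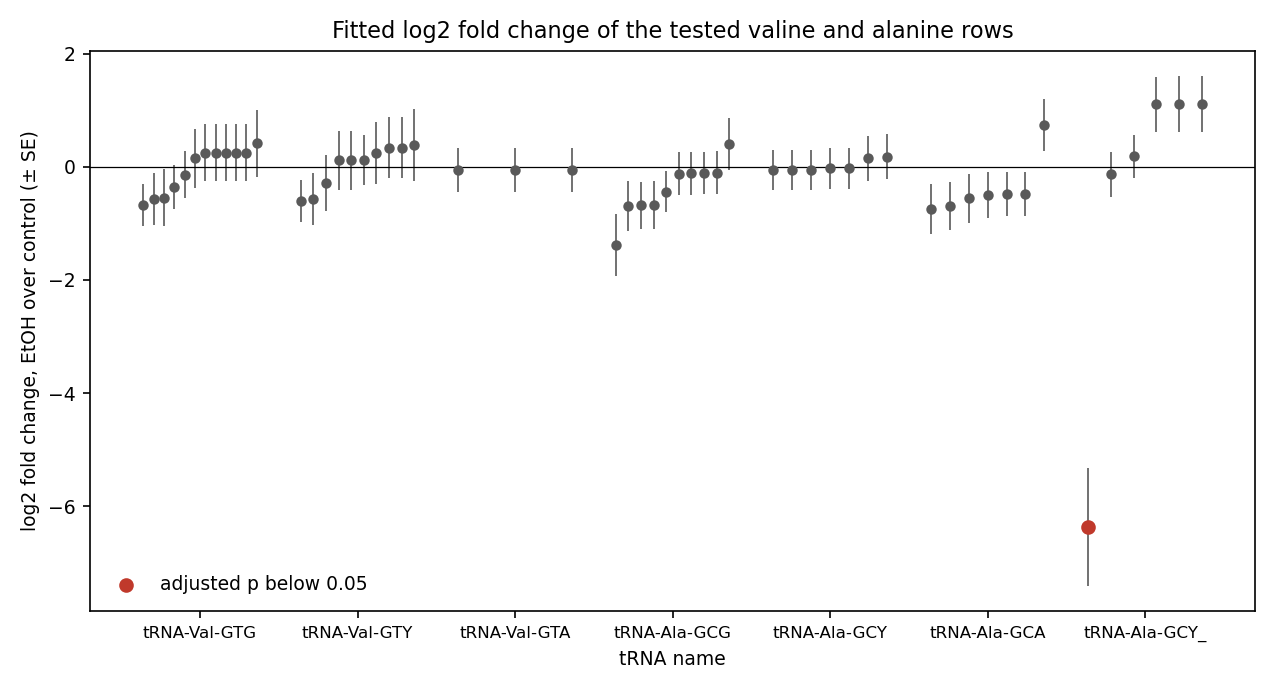
Fitted log2 fold change, EtOH over control, of the 55 tested rows, grouped by tRNA name and ordered by size within a name; bars are standard errors. The red point, tRNA-Ala-GCY__copy1340 at -6.37, is the row with an adjusted p below 0.05, and the fitted values of the other rows lie between -1.38 and 1.11.

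Valine tRNA with codon GTG gave the most abundant members. Its leading row, tRNA-Val-GTG_copy12, had 6912, 3237, 3773 and 14522 CPM in EtOH libraries 1 to 4, against 3901, 4552, 10000 and 5492 CPM in control libraries 1 to 4. A single library stood high in each group, EtOH 4 and control 3, and the groups overlapped widely. The means were 7111 ± 5200 CPM in the EtOH libraries and 5986 ± 2754 CPM in the controls (SD, n = 4 each), and the log2 fold change of 0.25 (SE 0.51) did not pass the test (edgeR adjusted p = 0.826). Leaving out EtOH 4 gave a mean of 4641 ± 1985 CPM for the other EtOH libraries (SD, n = 3) and a log2 fold change of -0.34, so the direction rested on that library. Without control 3 the control mean was 4648 ± 800 CPM (SD, n = 3). The near-copy tRNA-Val-GTG_copy1 and 3 others carried the same values to within the gap given above.

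Valine tRNA under the name GTY followed GTG closely. Its leading row, tRNA-Val-GTY_copy4, had 6379, 2741, 3161 and 13919 CPM in the EtOH libraries, against 3129, 3574, 9176 and 4850 CPM in the controls. The order of the 8 libraries was nearly that of the GTG row, and per 100 counts of tRNA-Val-GTG_copy12 it had 83.8 to 95.8 counts in the EtOH libraries and 78.5 to 91.8 in the controls. The means were 6550 ± 5174 CPM and 5182 ± 2761 CPM (EtOH and control, SD, n = 4 each), with a log2 fold change of 0.34 (SE 0.54, edgeR adjusted p = 0.764). Its near-copy, tRNA-Val-GTY_copy13, gave the same means.

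Valine tRNA with codon GTA was the scarcest of the valine names and the most even across libraries. tRNA-Val-GTA_copy5 had 728, 527, 759 and 1465 CPM in the EtOH libraries, against 821, 1081, 948 and 758 CPM in the controls. EtOH 4 was again the highest and EtOH 2 the lowest, while control 3, high for the other valine names, was not set apart. The means were 870 ± 410 CPM in the EtOH libraries and 902 ± 143 CPM in the controls (SD, n = 4 each), with a log2 fold change of -0.05 (SE 0.39, edgeR adjusted p = 0.954). The other 2 tested rows of this name, tRNA-Val-GTA_copy6 and tRNA-Val-GTA_copy13, were near-copies of it.

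**Figure D3:**
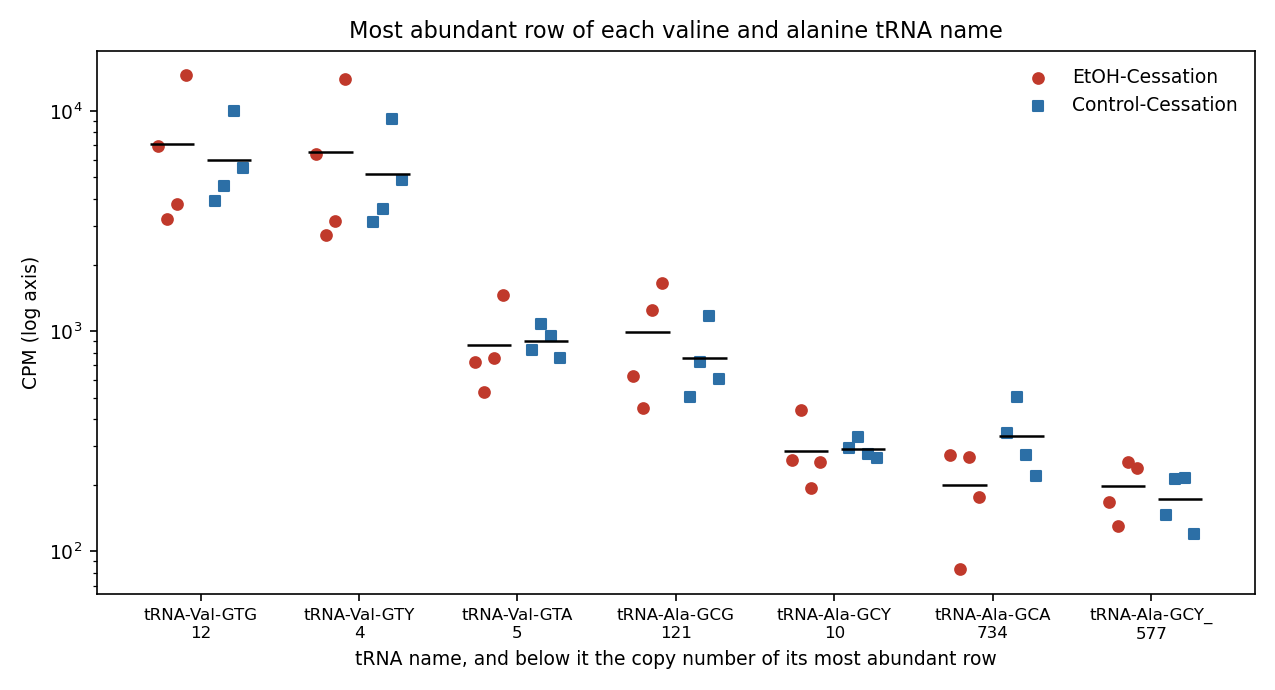
CPM on a log axis of the most abundant row of each of the 7 tRNA names, EtOH libraries (red circles) left of control libraries (blue squares), with the group means as bars. The 2 groups overlap in all 7 rows; tRNA-Val-GTG_copy12 spans 3237 to 14522 CPM and tRNA-Ala-GCY__copy577 spans 120 to 254 CPM.

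The valine rows did not move together. Beside the leading rows, some low rows kept a steady ratio to tRNA-Val-GTG_copy12: tRNA-Val-GTG_copy17 had 1.91, 2.01, 2.49 and 2.80 counts per 100 counts of it in the EtOH libraries, against 1.93, 2.08, 2.53 and 1.84 in the controls. Others did not follow it. tRNA-Val-GTG_copy22, a row of the same name, had 6.69, 9.18, 17.0 and 3.28 counts per 100 in the EtOH libraries, against 19.0, 21.6, 7.75 and 9.09 in the controls. The lowest ratio was in EtOH 4, where the leading row was highest. Within 1 tRNA name, the ratio of this pair of rows thus varied from 3.28 to 21.6 counts per 100 among libraries, while the ratio of copy17 stayed between 1.84 and 2.80.

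**Figure D4:**
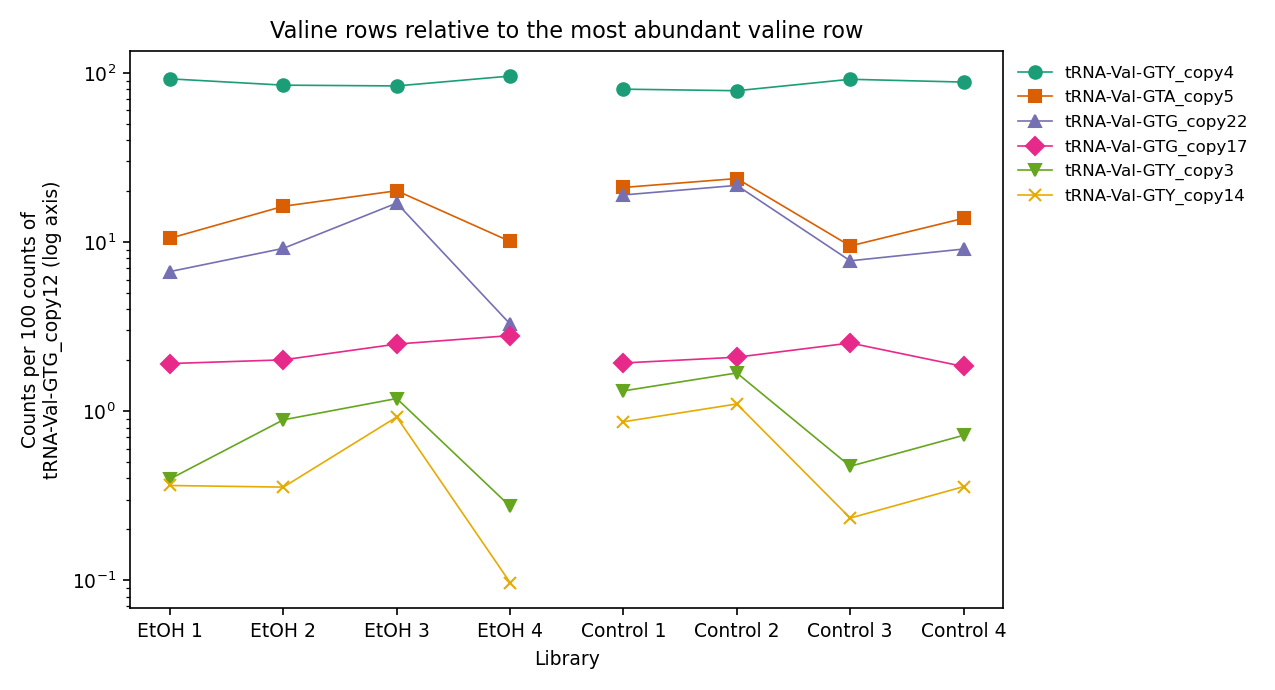
Counts of 6 valine rows per 100 counts of tRNA-Val-GTG_copy12 on a log axis, by library, EtOH left of control; lines join libraries only to guide the eye. tRNA-Val-GTY_copy4 stays between 78.5 and 95.8, while tRNA-Val-GTG_copy22 ranges from 3.28 in EtOH 4 to 21.6 in control 2.

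On the CPM scale tRNA-Val-GTG_copy22 had 462, 297, 641 and 476 CPM in the EtOH libraries, against 741, 985, 775 and 499 CPM in the controls. Control 4 fell among the EtOH values, and the other 3 controls lay above all 4 EtOH libraries. The means were 469 ± 141 CPM and 750 ± 199 CPM (EtOH and control, SD, n = 4 each), with a log2 fold change of -0.68 (SE 0.37), the lowest p of the valine rows, and it did not pass (edgeR adjusted p = 0.262). The rows with the next lowest p in this direction were tRNA-Val-GTY_copy3, with a log2 fold change of -0.61 (edgeR adjusted p = 0.319), and the shared row of tRNA-Val-GTG_copy21 and tRNA-Val-GTY_copy14, with -0.56 (edgeR adjusted p = 0.475). In the other direction tRNA-Val-GTG_copy17 had 132, 65.1, 94.0 and 406 CPM in the EtOH libraries, against 75.2, 94.9, 253 and 101 CPM in the controls. EtOH 4 and control 3 were again the high libraries. Its log2 fold change of 0.41 (SE 0.59) was the highest of the valine rows and did not pass (edgeR adjusted p = 0.722). tRNA-Val-GTY_copy7 had a log2 fold change of 0.38 (edgeR adjusted p = 0.775).

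Among the alanine names GCG had the single most abundant row. tRNA-Ala-GCG_copy121 had 626, 450, 1248 and 1665 CPM in the EtOH libraries, against 500, 726, 1178 and 608 CPM in the controls. EtOH 3, EtOH 4 and control 3 stood above 1000 CPM, and the groups overlapped. The means were 997 ± 562 CPM and 753 ± 298 CPM (EtOH and control, SD, n = 4 each), with a log2 fold change of 0.41 (SE 0.46, edgeR adjusted p = 0.641). It was the only one of the 10 tested GCG rows fitted above 0, where 265 of 380 distinct tRNA rows were fitted below 0. Among the other GCG rows copy15, copy30 and copy31 are near-identical, as are copy186 and copy187. The next most abundant row, tRNA-Ala-GCG_copy79, had 145, 107, 162 and 141 CPM in the EtOH libraries, against 194, 266, 159 and 135 CPM in the controls. Its log2 fold change was -0.44 (edgeR adjusted p = 0.475). Per 100 counts of copy121 it had 8.48 to 23.7 counts in the EtOH libraries and 13.4 to 38.7 in the controls. The lowest p in this name belonged to a scarce row, tRNA-Ala-GCG_copy170, with 4.99, 0.909, 3.18 and 2.12 CPM in the EtOH libraries, against 11.1, 10.7, 6.18 and 2.46 CPM in the controls. Only control 4 lay within the EtOH range, and the log2 fold change of -1.38 (SE 0.55) had an unadjusted p of 0.0258 and did not pass (edgeR adjusted p = 0.131).

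Alanine tRNA with codon GCA was fitted below 0 in 6 of its 7 tested rows, of which copy726 and copy731 are near-identical. Of all distinct tRNA rows 265 of 380 were fitted below 0, and of all features 5652 of 10234. tRNA-Ala-GCA_copy734 had 274, 83.3, 267 and 177 CPM in the EtOH libraries, against 346, 500, 274 and 221 CPM in the controls. EtOH 2 was far the lowest and control 2 the highest, and the groups overlapped. The means were 201 ± 89.7 CPM and 336 ± 121 CPM (EtOH and control, SD, n = 4 each), with a log2 fold change of -0.74 (SE 0.44, edgeR adjusted p = 0.299). tRNA-Ala-GCA_copy731 had a log2 fold change of -0.48 (edgeR adjusted p = 0.464) and tRNA-Ala-GCA_copy39 one of -0.70 (edgeR adjusted p = 0.309). The row above 0 was tRNA-Ala-GCA_copy171, with 58.5, 224, 61.3 and 94.5 CPM in the EtOH libraries, against 63.0, 77.5, 52.3 and 70.0 CPM in the controls. EtOH 2 stood apart in it on the high side, and its log2 fold change was 0.74 (SE 0.47, edgeR adjusted p = 0.330) with EtOH 2 and 0.11 without it.

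The make-up of the alanine rows differed in EtOH 2 from the other libraries. tRNA-Ala-GCA_copy731 had 87.6 counts per 100 counts of tRNA-Ala-GCA_copy734 in EtOH 2, against 33.8 to 36.8 in the other EtOH libraries and 32.3 to 35.2 in the controls. tRNA-Ala-GCA_copy171 had 269 counts per 100 of the same row in EtOH 2, against 21.3 to 53.3 in the other EtOH libraries and 15.5 to 31.6 in the controls. The same library had the raised exon share and epithelial gene level given above, while its miR-200b-3p level lay within the range of the others. The part of these in the ratios was not tested.

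Alanine tRNA under the name GCY gave 7 tested rows of nearly equal level. tRNA-Ala-GCY_copy10 had 259, 439, 195 and 255 CPM in the EtOH libraries, against 296, 329, 277 and 267 CPM in the controls. All 7 rows were highest in EtOH 2 and lowest in EtOH 3, so that the EtOH group lay on both sides of the tight control group. The 7 are not separate measurements, as copy9 and copy10 are near-identical, and so are copy2, copy5 and copy6. The means of copy10 were 287 ± 105 CPM and 292 ± 27.5 CPM (EtOH and control, SD, n = 4 each), with a log2 fold change of -0.03 (SE 0.36, edgeR adjusted p = 0.975), and its near-copy tRNA-Ala-GCY_copy9 gave the same rounded log2 fold change. The 7 rows ranged from -0.06 to 0.18.

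The last name, tRNA-Ala-GCY_, held both ends of the fitted changes. Its most abundant row, tRNA-Ala-GCY__copy577, had 167, 131, 254 and 239 CPM in the EtOH libraries, against 146, 213, 216 and 120 CPM in the controls, and did not differ beyond the spread between libraries (log2 fold change 0.19, SE 0.38, edgeR adjusted p = 0.824). Next to it by copy number are 3 rows with similar profiles, of which copy574 and copy575 are near-identical. tRNA-Ala-GCY__copy574 had 79.1, 329, 75.6 and 165 CPM in the EtOH libraries, against 65.1, 90.9, 58.2 and 85.9 CPM in the controls. EtOH 2 and EtOH 4 lay above all controls and the other EtOH libraries within their range. The means were 162 ± 118 CPM and 75.0 ± 15.9 CPM (EtOH and control, SD, n = 4 each), and the log2 fold change of 1.11 (SE 0.49) had an unadjusted p of 0.0415 and did not pass (edgeR adjusted p = 0.167). tRNA-Ala-GCY__copy575 and tRNA-Ala-GCY__copy576 had log2 fold changes of 1.11 and 1.10 with edgeR adjusted p of 0.167 and 0.168, and these 3 rows are the 3 counted above as higher at an unadjusted p below 0.05. Without EtOH 2 the log2 fold change of copy574 was 0.49 (edgeR adjusted p = 0.504), and the other EtOH libraries averaged 107 ± 50.5 CPM (SD, n = 3). Per 100 counts of copy577, copy574 had 251 counts in EtOH 2, against 29.7 to 69.0 in the other EtOH libraries and 27.0 to 71.6 in the controls.

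The row past the threshold was tRNA-Ala-GCY__copy1340. It had 1, 3, 0 and 0 counts in EtOH libraries 1 to 4, against 35, 163, 39 and 22 counts in control libraries 1 to 4. Every control library lay above every EtOH library, and control 2 stood far above the other controls. The row was tested only because of its control counts. Control 2 was also the library with the most miR-223-3p (54.8 CPM) and miR-150-5p (192 CPM). It had the highest red blood cell, smooth muscle and leukocyte sums given above. The leukocyte sum was nearly equal in EtOH 2, at 20.6 CPM against 21.1 CPM in control 2. The red blood cell marker miR-451a instead was highest in control 4, at 748 CPM against 601 CPM in control 2. Control 4 had the fewest counts of the row among the controls. miR-223-3p did not overlap between the groups either, as was the case with EtOH lower for 7.81% of all features. The levels of miR-150-5p and miR-451a did overlap, as did the leukocyte sums. The part of blood or other cells in the row was not tested. In CPM the row had 0.156, 0.909, 0 and 0 in the EtOH libraries, against 9.23, 49.9, 11.0 and 5.40 in the controls. The means were 0.266 ± 0.434 CPM and 18.9 ± 20.8 CPM (EtOH and control, SD, n = 4 each). The fitted log2 fold change was -6.37 (SE 1.04, edgeR adjusted p = 0.0341), DESeq2 gave an adjusted p of 0.000218 and limma voom one of 0.0350. Without control 2 the control mean was 8.53 ± 2.84 CPM (SD, n = 3) and the adjusted p 0.0188. The call was lost without EtOH 4 (edgeR adjusted p = 0.0814), without control 1 (0.0506) or without control 3 (0.0657). It was also lost under each of 4 other scalings of the libraries, with edgeR adjusted p of 0.0558 to 0.25, while the fitted log2 fold change stayed between -6.26 and -6.03, and was -5.92 without EtOH 4. Even in control 2 the row was small beside its name, with 23.4 counts per 100 of copy577, against 4.50 to 6.32 in the other controls.

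Among the 136 untested rows, 29 had 10 or more counts in all. Their names were chosen after their values were seen. In 7 of the 29 every EtOH library lay below every control, where the background among 81757 untested features of that size was 2.11%, and in 2 every EtOH library lay above, where it was 4.94%. All 9 were alanine rows, as were most of the 29. The low rows with at most 2 counts over the EtOH group reached 10 counts only through the controls. Rows so selected had to differ between the groups to be listed. How many background features met the cutoff in that way is not given, so 7 of 29 against 2.11% does not show an enrichment. tRNA-Ala-GCA_copy30 had 0 counts in each of the 4 EtOH libraries, against 10, 15, 7 and 5 counts in the controls. Set against a floor of 3 counts over the EtOH group, this is 18.05-fold lower. The lower end of the 95% exact interval of the ratio was 13.96-fold. tRNA-Ala-GCY__copy252 had 0, 0, 1 and 0 counts in the EtOH libraries, against 6, 18, 8 and 3 in the controls, a depth-scaled ratio of control to EtOH of 51.2 (95% exact interval 8.61 to 2080, for counting error only). tRNA-Ala-GCY__copy2082 had 1, 0, 1 and 0 counts, against 7, 6, 11 and 6, a ratio of control to EtOH of 21.9 (5.57 to 190). tRNA-Ala-GCY__copy1716 had 0 counts in all 4 EtOH libraries, against 2, 7, 2 and 1 in the controls. This is 5.85-fold lower against the same floor and 4.07-fold at the lower end of the exact interval. The other 3 low rows, tRNA-Ala-GCG_copy139, tRNA-Ala-GCY__copy1394 and tRNA-Ala-GCY__copy2183, had counts in every library, with totals of 7, 12 and 25 counts in the EtOH libraries, against 15, 18 and 29 in the controls. The 2 high rows, tRNA-Ala-GCA_copy400 and tRNA-Ala-GCY__copy147, carried identical counts, 12, 23, 11 and 12 in the EtOH libraries, against 3, 3, 5 and 5 in the controls. In the fit without a filter on low counts, 4 members were lower with an edgeR adjusted p below 0.05 (background 0.0203% of 867194 features). They were tRNA-Ala-GCY__copy1340, tRNA-Ala-GCA_copy30, tRNA-Ala-GCY__copy252 and tRNA-Ala-GCY__copy2082. That background includes many features with too few counts to be called, as only 81757 untested ones had 10 or more. Nor are its p-values on a par with the filtered fit: the edgeR adjusted p of copy1340 was 6.7e-14 there and 0.0341 with the filter. All 136 untested rows summed to 672 counts in the EtOH libraries and 585 in the controls.

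**Figure D5:**
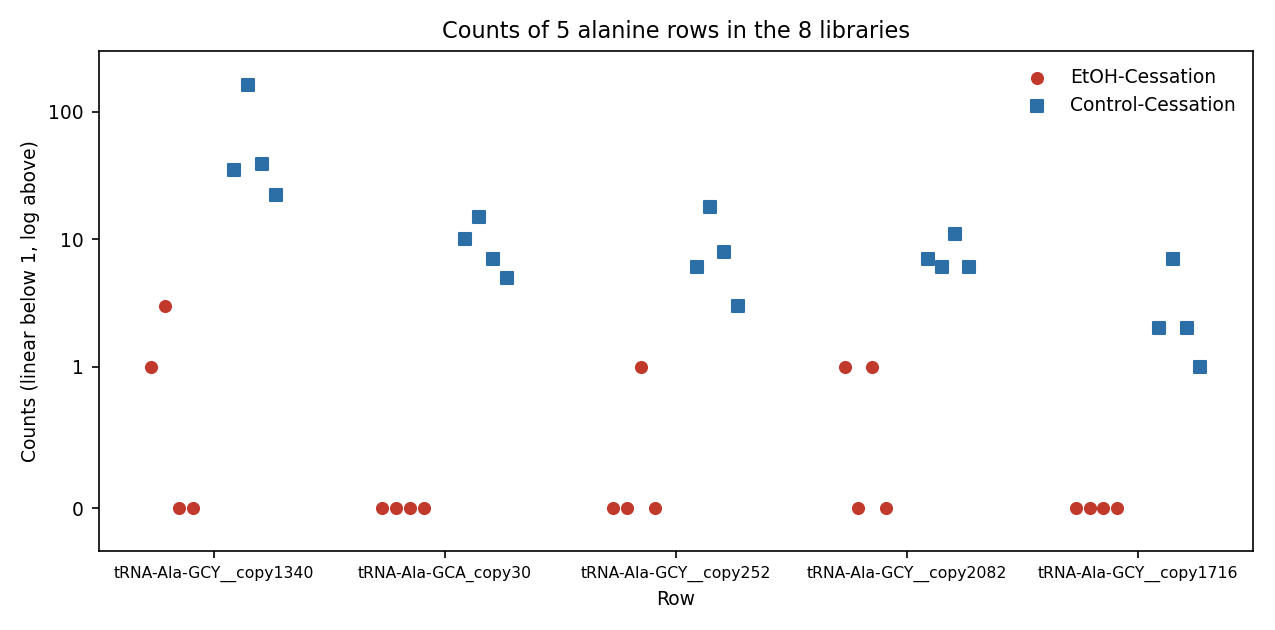
Counts of 5 alanine rows, chosen after their values were seen, in the EtOH libraries (red circles) and control libraries (blue squares); the axis is linear below 1 and logarithmic above. The EtOH libraries hold 0 to 3 counts and the control libraries 1 to 163.

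Summed by name, no valine or alanine tRNA passed the test. In a whole-table fit with tRNA rows summed by name, 0 of 57 tRNA names passed an adjusted p of 0.05 (edgeR, 0.173% of 9816 features passed), and none of the 7 names had an unadjusted p below 0.05. In that fit tRNA-Ala-GCY_ had the lowest p of the 7 names, with 423, 1052, 503 and 748 CPM in the EtOH libraries, against 372, 570, 426 and 400 CPM in the controls. EtOH 2 and EtOH 4 lay above all controls. Its log2 fold change was 0.62 (SE 0.39, edgeR adjusted p = 0.327), opposite in sign to that of its called row. tRNA-Ala-GCA had a log2 fold change of -0.45 (SE 0.37, edgeR adjusted p = 0.473), and tRNA-Val-GTY one of 0.32 (SE 0.52, edgeR adjusted p = 0.773). tRNA-Val-GTG had one of 0.24 (edgeR adjusted p = 0.832), tRNA-Ala-GCG 0.12 (0.894), tRNA-Ala-GCY 0.01 (0.993) and tRNA-Val-GTA -0.04 (0.966).

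The spread within groups followed a few libraries. Over the 55 tested rows the highest CPM was in control 2 for 23 rows, in EtOH 4 for 18 and in EtOH 2 for 12, with 1 each in EtOH 3 and control 1. The lowest was in EtOH 2 for 32 rows, among them all 12 of tRNA-Val-GTG. CPM is divided by the TMM factor, which was largest in EtOH 2, at 1.33. For tRNA-Val-GTG, 7 rows peaked in EtOH 4 and 5 in control 2, and for tRNA-Val-GTY 7 rows peaked in EtOH 4 and 3 in control 2. Control 2 held the highest value in 6 of the 7 GCA rows and 8 of the 10 GCG rows. Near-identical rows count separately here, and the 55 rows stand for 39 sets. The 7 GTG rows with a peak in EtOH 4 include 5 near-copies. The same tally over all tested features is not given.

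Messenger RNA fragments of the tRNA machinery gave little to set beside these values. Of 79 listed genes for charging, cleavage, modification, maturation and transcription of tRNAs, 75 had exon rows, but only 4 exons of 3 genes had enough counts to be tested. Those of Vars and Aars, the valyl and alanyl tRNA synthetases, were not among them. None of the 4 passed (edgeR, where 0.0217% of exon features passed; 0 of 4 also with DESeq2 and with limma voom), and 1 was higher at an unadjusted p below 0.05, where 36.8% of exon features were higher and 3.35% lower. That exon, of the RNA polymerase III subunit Polr3k, had 2.81, 6.66, 2.42 and 3.67 CPM in the EtOH libraries, against 1.85, 1.84, 2.25 and 1.23 CPM in the controls. The groups did not overlap, as was the case with EtOH higher for 15.4% of exon features, at 5 to 22 counts per library, and the log2 fold change was 1.07 (SE 0.43, edgeR adjusted p = 0.134). Of the other 3, an exon of the RNase P subunit gene Rpp38 had a log2 fold change of 0.51 (edgeR adjusted p = 0.625), and those of Gtf3c4, a subunit of transcription factor TFIIIC, had 0.43 and -0.15 (edgeR adjusted p = 0.556 and 0.876).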

How the data were processed

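Sperm RNA was taken up in guanidinium thiocyanate with a reducing agent, and the second read of each pair was left aside, per the labels. The submitters' processing notes name cutadapt, a tool for adapter trimming. The authors deposited whole-number counts per annotated feature, not normalized. The aligner, genome build and annotation were not given in the sources used here, nor was the treatment of reads with several matches, which decides how reads fall on tRNA copies. Total counts per library ran from 3116421 to 6805989, and intervals cover counting error only.

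Features were filtered with filterByExpr (at least 10 counts, total of at least 15) and TMM-normalized. edgeR 4.0.16 (R 4.3.3) gave quasi-likelihood p-values, which were adjusted by Benjamini-Hochberg across the 10234 tested features and read at 0.05. Rows of 1 tRNA name within 5% or 3 counts of each other in every library were called near-identical. Members, lists and tests were chosen with earlier results of these data known. The rows named were every one past the threshold, the 2 most abundant per tRNA name and the 4 with the lowest p per amino acid and direction. Of the steps, only the edgeR fit was run on simulated counts with known changes. Alternatives were other scalings and filters, DESeq2 1.42.0, limma 3.58.1 voom, tRNA rows summed by name, and libraries left out; joining near-identical rows (for the test and for the shares) and taking only the largest row of a name were added after the data were seen. Groups came from the treatment label; replicate numbers only name a library. Genes were matched by the symbol in the exon row.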

Additional observations from a re-analysis of the deposited data

Results flagged for a closer look

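Of 70 groups of 4 libraries examined, 2 had a library that lay far from the other 3. tRNA-Ala-GCY__copy1340 stood at 49.91 CPM in control 2, beside 5.40 to 11.0 CPM in the other controls and 0 to 0.909 CPM in the EtOH libraries. tRNA-Val-GTG_copy17 stood at 252.9 CPM in control 3, beside 75.2 to 101 CPM in the other controls. Chance flags about 1 in 20 groups by the measure used, the gap to the nearest library over the range of the group.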

How the results depend on the processing

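The count of valine and alanine rows past the threshold was 1, with tRNA-Ala-GCY__copy1340 below its control level in each fit that held it as a row. The count was 0 with median-of-ratios size factors, library size alone, piRNA cluster totals, tRNA totals, the EtOH libraries with EM identifiers only (EtOH 3 and 4; EtOH 1 and 2 have M identifiers), and 4 with no filter. With rows summed by name, where copy1340 is no row of its own, it was 0 of 7 names. Leaving out 1 library gave 0 to 1. The adjusted p of copy1340 was 0.0588, 0.0558, 0.25 and 0.0561 under the 4 scalings and 0.0515 with the EM libraries, and 6.7e-14 to 0.0814 over all alternatives but the piRNA totals. Calls over all features moved far more, from 19 (5 higher, 14 lower) to 9 (1 and 8) with median-of-ratios factors or library size, 10 (2 and 8) with tRNA totals, 11 (1 and 10) with a mean count of at least 10, 1 (lower) with piRNA totals, 2572 with the M libraries (2206 and 366), 1747 with DESeq2 (1343 higher, 404 lower), 655 with limma voom (416 and 239), 1642 with no filter (1466 and 176) and 668 without features with isolated zeros (498 and 170), and leaving out 1 library gave 3 to 2332. The median log2 fold change of all features was -0.09 in the reported fit and -0.00, 0.18, 0.15 and 0.11 under the 4 scalings; that of the members was -0.06 and 0.03, 0.24, 0.29 and 0.12. The cause was not tested.

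Of 540 values for 26 named rows, 481 kept direction and side of the threshold, 8 lost the call and 51, of 12 rows never past the threshold, changed sign. The summed alanine log2 ratio was 0.04, and 0.36 with library size, 0.44 with piRNA totals, 0.41 with only the largest row of each name, and -0.11 to 0.32 leaving out 1 library. With piRNA totals GCY was 0.51 and GCY_ 1.13. With the M libraries GTA was -0.67 and GCG -0.45, and with the EM libraries 0.42 and 0.56. No exon of the tRNA machinery passed of the 4 in the reported fit, while 2 higher and 1 lower of 834 passed with no filter (all features, 1642 of 867194), 2 higher of 7 without EtOH 3 (2332 of 11584), and 3 higher and 1 lower of 10 with the M libraries (2572 of 13606). No paired analysis was possible because the labels give no replicate numbers shared between groups. Depth kept rows with few counts out of the filtered test.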
